A study of Mus musculus with 4 samples.

Results

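The transcripts described here are 38 genes of the cell division cycle, taken by symbol from a fixed list: 18 that act in S phase, when DNA is copied, and 20 that act in mitosis, when the copies are parted. All 38 were among the 18598 genes in the deposited table and all 38 averaged 10 or more normalized counts over the libraries, the minimum for testing, which 14858 genes met. They were measured by RNA-seq of LSK cells, the lineage-negative, SCA-1-positive, c-KIT-positive bone marrow fraction with the stem and multipotent progenitor cells of blood. The 2 *Bptf* cKO libraries came from *Bptf* f/f;*Mx1*-cre mice, labelled *Bptf* -/-, and the 2 control libraries from *Bptf* f/f littermates that carry no cre. The animals were C57BL/6 and about 3 months old, every library held cells pooled from 5 of them, and both genotypes received pIpC, the double-stranded RNA that switches on the interferon-inducible *Mx1* promoter, with LSK cells taken 10 days after cre induction. Since cre was present in the cKO alone, loss of BPTF and the activity of cre cannot be told apart, and the *Mx1* promoter is also active outside blood cells. The question for these genes was whether the transcripts of DNA replication and of mitosis differed between LSK cells with and without BPTF, the largest subunit of the NURF chromatin remodeler.

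Genes for DNA replication are switched on by E2F factors as cells pass from G1 into S phase. Genes for mitosis are held down in resting and G1 cells by the DREAM complex and are switched on in G2 by MYB-MuvB and FOXM1, largely through CHR elements and CCAAT boxes that bind NF-Y. Most long-term stem cells in adult marrow rest outside the cycle, while multipotent progenitors, which make up most LSK cells, divide often.

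The libraries held between 14091054 and 30134742 reads on listed genes, with replicate 2 of each genotype the shallower, and a member had at least 297 reads in every library. *Bptf* itself was at 5520.4 and 5850.1 normalized counts in *Bptf* f/f and at 3398 and 3319.9 in *Bptf* cKO (log2 fold change -0.76, adjusted p = 0.0439 by limma, 0.0531 by edgeR and 1.01e-07 by DESeq2). *Kit*, a gene of the sort, lay between 13634 and 17051. The libraries also fell apart by replicate number. *Xist* was at 15675 and 11843 normalized counts in the replicate 2 libraries and at 0.775 and 3.25 in the replicate 1 libraries. The Y-linked *Ddx3y* was still present in replicate 2, at 456 and 769, and was at 1837 and 1835 in replicate 1. The Y-linked *Eif2s3y*, *Kdm5d* and *Uty* were also present in all libraries and lower in replicate 2. The pluripotency gene *Pou5f1* was at 582 and 738 in replicate 2 and at 0 in both replicate 1 libraries, as were *Nanog*, *Zfp42* and *Sox2*, which reached 43.7, 84.7 and 24.0 in the *Bptf* cKO replicate 2 library. The sources used here do not say what a replicate number stands for, so each result below is given by library.

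The promoters of the S-phase and the mitotic members differed in how often they held short words for E2F sites, CHR elements and CCAAT boxes. RefSeq sequence of GRCm38.p6, from 250 bases before to 50 bases after the start of a gene, was found for 14 of the 18 S-phase and 16 of the 20 mitotic members. It was searched on both strands for 4 E2F words (TTTCCCGC, TTTCGCGC, TTTGCCGC and TTTGGCGC), for 2 CHR words (TTTGAA and TTCGAA) and for CCAAT. Matches of E2F words can share bases on opposite strands, and TTCGAA reads the same on both. An E2F word was present in 6 of 14 S-phase members (42.9%), *Mcm3*, *Mcm5*, *Mcm6*, *Mcm7*, *Cdc6* and *Cdt1*, in 1 of 16 mitotic members (6.25%), *Cdk1*, and in 2.27% of all 32851 promoters. A CHR word together with a CCAAT box was present in 12 of 16 mitotic members (75%), in 2 of 14 S-phase members (14.3%) and in 7.53% of all promoters. Related lists described below shared these traits. The pair was in 33 of 64 other mitotic genes (51.6%). An E2F word was in 11 of 46 other replication genes (23.9%) and in 6 of 13 E2F, pocket protein and MuvB regulators (46.15%). A CHR word of either spelling stood in 19.2% of all promoters and CCAAT in 37.4%, so a single match of these short words says little. In 2 of 16 mitotic members (*Birc5* and *Mybl2*) and 4 of 14 S-phase members (*Ccne1*, *Tk1*, *Tyms* and *E2f1*) none of the 3 kinds of word was found. Only these exact spellings were searched, so a promoter without a match can still hold a site spelled otherwise.

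The sequences shown run 200 bases up to the start of the gene, 5′ to 3′ on the strand of the gene, with matches in capitals. From the S-phase side they are *Cdc6* (chr11:98907951-98908150, plus strand) and *Tk1* (chr11:117826015-117826214, minus strand), which had the smallest unadjusted p of the S-phase members with a promoter here, and *Mcm5* (chr8:75109309-75109508, plus strand), a textbook E2F target in which 2 E2F words on opposite strands share bases.
Cdc6: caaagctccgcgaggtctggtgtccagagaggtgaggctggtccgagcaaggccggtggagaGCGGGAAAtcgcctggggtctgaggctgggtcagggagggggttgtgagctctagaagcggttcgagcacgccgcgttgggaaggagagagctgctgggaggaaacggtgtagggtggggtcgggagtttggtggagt
Tk1: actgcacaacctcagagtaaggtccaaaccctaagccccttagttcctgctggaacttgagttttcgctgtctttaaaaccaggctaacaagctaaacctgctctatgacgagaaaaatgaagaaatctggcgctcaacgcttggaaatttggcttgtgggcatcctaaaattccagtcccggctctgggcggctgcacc
Mcm5: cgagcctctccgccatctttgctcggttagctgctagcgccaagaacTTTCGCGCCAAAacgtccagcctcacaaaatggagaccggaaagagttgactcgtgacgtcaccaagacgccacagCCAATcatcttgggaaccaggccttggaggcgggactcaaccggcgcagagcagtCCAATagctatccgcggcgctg

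From the mitotic side they are *Mybl2* (chr2:163054435-163054634, plus strand) and *Mki67* (chr7:135716380-135716579, minus strand), chosen by the same rule, *Ccnb1* (chr13:100786487-100786686, minus strand), a textbook mitotic gene with 2 CCAAT boxes here and no CHR word, and *Cdk1* (chr10:69352913-69353112, minus strand), added after the matches were seen because all 3 kinds of word occur in it.
Mybl2: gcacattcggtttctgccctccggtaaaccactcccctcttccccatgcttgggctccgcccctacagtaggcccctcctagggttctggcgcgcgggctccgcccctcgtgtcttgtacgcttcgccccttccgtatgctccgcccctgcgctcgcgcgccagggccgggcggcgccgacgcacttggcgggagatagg
Mki67: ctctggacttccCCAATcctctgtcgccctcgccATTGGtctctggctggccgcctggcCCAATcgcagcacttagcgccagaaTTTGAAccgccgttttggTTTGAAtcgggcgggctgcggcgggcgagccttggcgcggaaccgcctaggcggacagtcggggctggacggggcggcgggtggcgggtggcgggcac
Ccnb1: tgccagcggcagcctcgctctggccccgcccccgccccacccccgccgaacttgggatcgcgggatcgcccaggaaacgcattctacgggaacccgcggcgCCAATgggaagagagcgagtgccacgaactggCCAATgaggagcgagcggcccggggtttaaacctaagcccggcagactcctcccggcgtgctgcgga
Cdk1: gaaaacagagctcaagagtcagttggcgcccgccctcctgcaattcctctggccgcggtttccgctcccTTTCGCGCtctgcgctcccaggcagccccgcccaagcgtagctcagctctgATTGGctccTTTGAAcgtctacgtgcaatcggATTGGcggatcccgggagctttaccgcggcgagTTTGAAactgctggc

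**Figure D1:**
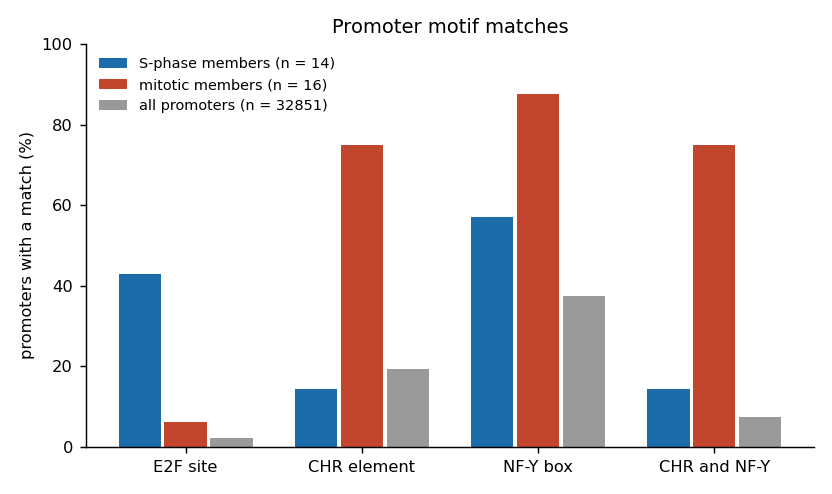
Share of promoters (percent, y axis) with an E2F word, a CHR word, a CCAAT box, or a CHR word together with a CCAAT box, for the S-phase members, the mitotic members and all promoters in the reference table. Of the sets shown, E2F words are most frequent among the S-phase members (42.9%), and the pair of CHR word and CCAAT box among the mitotic members (75%).

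No S-phase member differed between the genotypes by limma (0 of 18 at an adjusted p under 0.05, where 0.740% of all tested genes were called), edgeR (0 of 18, 0.633% of all) or DESeq2 (0 of 18, 5.55% of all). At an unadjusted p under 0.05 there were also 0 of 18, against 15.7% of all tested genes. Their median log2 fold change was -0.030 (*Bptf* cKO minus *Bptf* f/f), from -0.35 to 0.39, with 8 above 0 and 10 below, and the median of all tested genes was 0.0010. Fold changes are differences in log2(normalized count + 1), and each p is two-sided. Where a pair of levels is set against another, the first holds replicates 1 and 2 of *Bptf* f/f and the second those of *Bptf* cKO, and the parentheses after them open with the log2 fold change, followed where given by its 95% interval or standard error (SE).

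The MCM2 to MCM7 proteins form the ring of the replicative helicase. *Mcm2* was at 8779.8 and 8095 normalized counts in the *Bptf* f/f libraries and 10349 and 8549 in the *Bptf* cKO libraries (log2 fold change 0.16, 95% interval -0.16 to 0.47, limma adjusted p = 0.615). *Mcm6*, the highest member per kilobase of exon (3103 normalized counts per kb), was at 15237 and 14137 against 15724 and 12809.9 (-0.048, -0.38 to 0.28). *Mcm3* was the one S-phase member with both *Bptf* cKO libraries above both *Bptf* f/f libraries, at 10092 and 9777 against 11526 and 10188 (0.13, adjusted p = 0.626), an order shared by 23.2% of all tested genes. *Mcm7* had the opposite order, 8715 and 8159 against 8034 and 7417 (-0.13, adjusted p = 0.597), as did 23.8% of all tested genes. *Mcm4* and *Mcm5* had fold changes of -0.12 and 0.050 with overlapping groups. The 6 helicase genes thus lay on both sides of 0, and their intervals stayed within 1.5-fold either way.

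CDC6 and CDT1 load the helicase onto origins. *Cdc6* was at 1369.6 and 1307 normalized counts in the *Bptf* f/f libraries and 1211 and 1171 in the *Bptf* cKO libraries, the groups apart by -0.17 (95% interval -0.43 to 0.091, limma adjusted p = 0.505), and *Cdt1* at 3243 and 2679 against 2974 and 2526 (-0.10, -0.46 to 0.25). *Pcna*, the sliding clamp of the polymerases, also had both *Bptf* cKO libraries below both *Bptf* f/f libraries, at 5998 and 6344 against 5969 and 5098 (-0.16, adjusted p = 0.564), with the replicate 1 libraries nearly level. *Gins1* and *Gins2*, subunits of the GINS complex of the active helicase, were at 681 and 619.5 against 585 and 635 and 806 and 826 against 811 and 760.5. In all, 1 of 18 S-phase members had the groups apart upward and 3 of 18 downward, where 23.2% and 23.8% of all tested genes had those orders.

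The enzymes of nucleotide supply varied more between libraries. *Tk1*, thymidine kinase of the salvage pathway, was at 1709 and 2597 normalized counts in the *Bptf* f/f libraries and 1564 and 1752 in the *Bptf* cKO libraries (-0.35, 95% interval -0.89 to 0.19, limma adjusted p = 0.505). One *Bptf* f/f library stood above the other 3, which lay between 1564 and 1752. *Tyms*, thymidylate synthase, was at 1620.0 and 2425 against 1934 and 2186 (0.053, -0.47 to 0.58). *Rrm1* and *Rrm2*, the large and the small subunit of ribonucleotide reductase, were at 8450.4 and 11776 against 9596 and 11259 and at 3299 and 2976 against 3121 and 3093. *Rrm1* was higher in the replicate 2 library of both genotypes, while *Rrm2* spanned only 2976 to 3299 over all 4 libraries.

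Cyclin E with CDK2 drives entry into S phase. *Ccne2* had the largest positive fold change of the 38 genes, at 693 and 523 normalized counts in the *Bptf* f/f libraries and 896 and 693 in the *Bptf* cKO libraries (0.39, SE 0.21, 95% interval -0.13 to 0.91, limma adjusted p = 0.446), and the groups met, since a *Bptf* f/f library and a *Bptf* cKO library were both at 693. *Ccne1*, the lowest member per kilobase of exon (170.0), was at 454 and 419 against 518 and 419 (0.095). *E2f1*, which drives S-phase genes including the helicase genes, was at 1942 and 1615 against 2036 and 1642 (0.046, -0.35 to 0.44). For 16 of the 18 S-phase members the 95% interval lay within 1.5-fold either way, all but *Ccne2* and *Tk1*, as it did for 5829 of the 14858 tested genes.

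**Figure D2:**
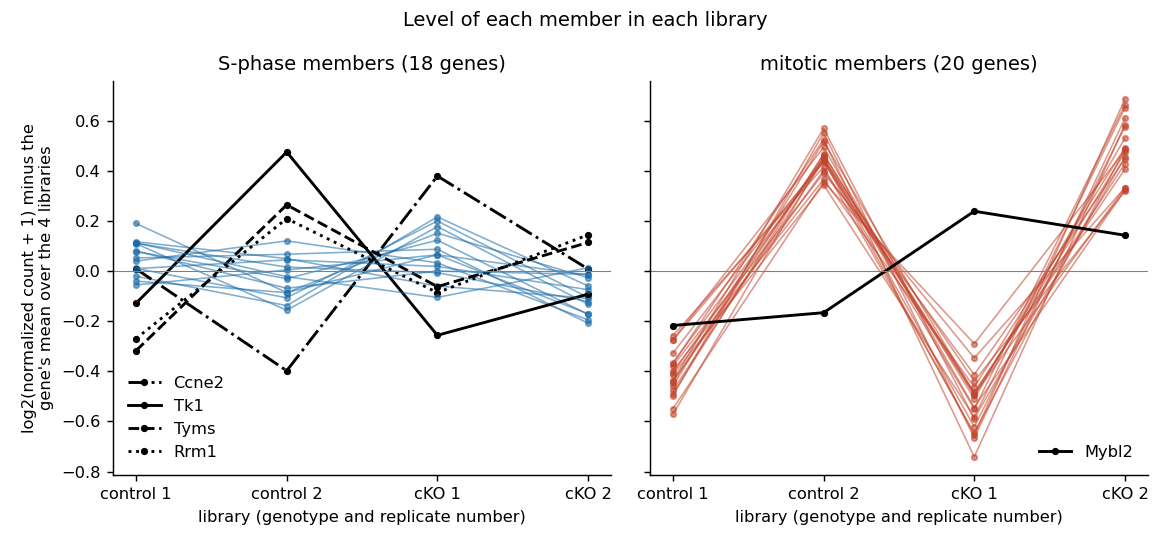
Level of each member in each library, as log2 of the normalized count plus 1 minus the gene's mean over the 4 libraries. The S-phase and the mitotic members are in separate panels, with a marker for each library by genotype and replicate number. The mitotic members separate by replicate number, with 19 of 20 higher in both replicate 2 libraries than in both replicate 1 libraries, against 3 of 18 S-phase members.

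Of the mitotic members, 0 of 20 differed between the genotypes by limma, edgeR or DESeq2, with a median log2 fold change of -0.033, from -0.22 to 0.38, 8 above 0 and 12 below. The precision was lower than for the S-phase members: the standard error ran from 0.10 to 0.52 (median 0.42, against 0.13 for the S-phase members and 0.18 for all tested genes), and 0 of 20 intervals lay within 1.5-fold. Every one of these intervals reached beyond 1.5-fold, so the values do not show that the genotypes were alike. The median moved with each library that was left out, to -0.47 without *Bptf* f/f replicate 1, 0.41 without *Bptf* f/f replicate 2, 0.47 without *Bptf* cKO replicate 1 and -0.52 without *Bptf* cKO replicate 2. With a library left out the replicate numbers are unbalanced between the genotypes, so these medians carry the gap by replicate number given below. Between libraries of the same number the median was -0.12 for replicate 1 and 0.059 for replicate 2.

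*Mybl2* stood apart in its precision and in the order of its libraries. It encodes B-MYB, the MYB protein that joins the MuvB core to switch on mitotic genes, and it is itself an E2F target. *Mybl2* was at 1263 and 1308 normalized counts in the *Bptf* f/f libraries and 1733 and 1621 in the *Bptf* cKO libraries, means of 1286 ± 32.3 and 1677 ± 78.9 (SD, n = 2), so that both *Bptf* cKO libraries lay above both *Bptf* f/f libraries. The log2 fold change was 0.38 (SE 0.10, 95% interval 0.13 to 0.64), with an unadjusted limma p of 0.0119, the one member under 0.05 of 38 where 15.7% of all tested genes were, and adjusted p of 0.185 by limma, 0.185 by edgeR and 0.106 by DESeq2. It thus did not pass the test in the fit by genotype alone. *Foxm1*, which binds with B-MYB and MuvB at mitotic promoters, was at 2098 and 3574 against 1739.8 and 3177 (-0.22, -1.15 to 0.71, limma adjusted p = 0.839).

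Cyclins A and B are the partners of CDK1, whose activity starts mitosis. *Ccna2* was at 3124 and 5343 normalized counts in the *Bptf* f/f libraries and 2889 and 4887 in the *Bptf* cKO libraries. *Ccnb1* was at 867 and 1466 against 770.2 and 1814 (0.069, SE 0.46, 95% interval -1.09 to 1.22), and *Ccnb2* at 1811 and 3281 against 1559 and 3579.6. RefSeq names 5 pseudogenes after *Ccnb1*, *Ccnb2*, *Pcna* and *Tyms*, and since the handling of reads shared with such copies is not given in the sources used here, the levels of these 4 genes are uncertain. In each of the 3 cyclin genes the 2 libraries of a genotype lay farther apart than the genotypes did. *Cdk1* was at 2359 and 4007 against 2254 and 4374 (0.030, SE 0.39), and *Cdc20*, which turns on the anaphase-promoting complex to destroy cyclin B, at 1789.8 and 3328 against 1382 and 3468 (-0.16, SE 0.50).

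The mitotic kinases had the same layout. *Aurka*, the kinase of the spindle poles, was at 946 and 1959.7 normalized counts in the *Bptf* f/f libraries and 842 and 2040.2 in the *Bptf* cKO libraries (-0.055, SE 0.52). *Plk1*, polo-like kinase, was at 1149.5 and 2173 against 1016 and 2576, and *Bub1* and *Bub1b*, kinases of the spindle checkpoint, at 1527 and 3003 against 1495 and 2825 and at 2980.3 and 5991 against 2684 and 5539. *Aurkb* and *Birc5* (survivin), which work together in the chromosomal passenger complex, were at 2125 and 3477 against 1827 and 3238 and at 1309 and 2463 against 1265 and 2478. None of the 6 had fold changes beyond -0.16 (*Aurkb*) and 0.034 (*Plk1*), with standard errors from 0.35 to 0.52.

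*Mki67*, the Ki-67 protein that coats mitotic chromosomes and is the common marker of dividing cells, was at 13276 and 24868 normalized counts in the *Bptf* f/f libraries and 15892 and 27137 in the *Bptf* cKO libraries (0.19, SE 0.38, limma adjusted p = 0.868). *Top2a*, the topoisomerase that untangles sister chromosomes, was at 15196 and 25891 against 15523 and 24862 (-0.014, SE 0.33). Both were among the members with the most transcript per kilobase of exon (2017 and 2259.8). *Cenpa*, the histone variant of centromeres, and *Cenpe*, the kinetochore motor, were at 2273 and 3623 against 1735 and 3807 and at 2007 and 3899 against 1979.7 and 4073. *Kif11* and *Kif23*, motors of the spindle and of the midzone, were at 4642 and 8111 against 4277 and 7929 and at 2511 and 4490.5 against 2553 and 4638, and *Tpx2*, which builds microtubules around chromosomes, at 2925 and 5968 against 2969 and 6891. All of these genes were higher in the replicate 2 library of each genotype.

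**Figure D3:**
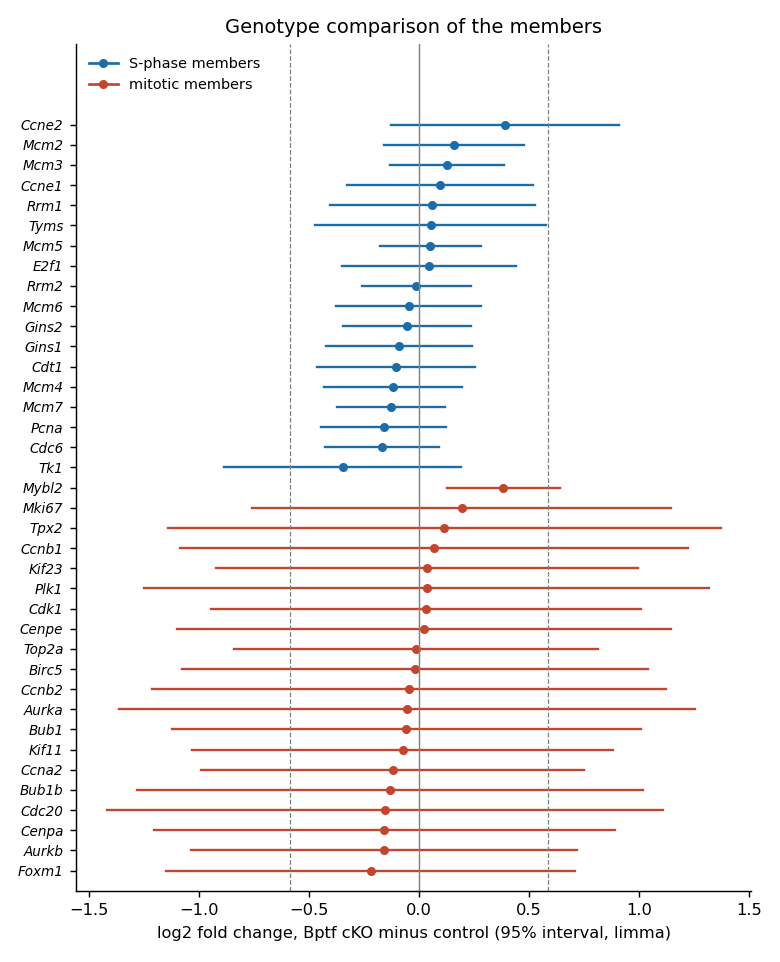
Log2 fold change of each member (*Bptf* cKO minus *Bptf* f/f, points) with its 95% interval from limma (bars), with a solid line at 0 and dashed lines at 1.5-fold either way. The S-phase intervals are narrow and the mitotic ones wide, apart from *Mybl2*, whose interval lies above 0.

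The spread behind these wide intervals ran by replicate number in both genotypes alike. Replicate 2 exceeded replicate 1 by a median of 0.85 (log2, 1.80-fold) over the 20 mitotic members in *Bptf* f/f and by 0.96 (1.95-fold) in *Bptf* cKO, while the medians of all tested genes were 0.0025 and -0.0045. Both replicate 2 libraries lay above both replicate 1 libraries for 19 of 20 mitotic members, all but *Mybl2*, and for 19.2% of all tested genes. A difference above 0.5 in each genotype, a threshold chosen after the values were seen, held for the same 19 members and for 4.67% of all tested genes. *Aurka* had one of the wider gaps, 2.07-fold in *Bptf* f/f and 2.42-fold in *Bptf* cKO. Over these 19 genes the gap ran from 0.67 to 1.05 in *Bptf* f/f and from 0.68 to 1.34 in *Bptf* cKO.

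By role, the medians were 0.77 in *Bptf* f/f and 1.20 in *Bptf* cKO for cyclins A and B, *Cdk1* and *Cdc20*, 0.95 and 1.01 for the kinases and *Birc5*, 0.84 and 1.04 for the spindle and kinetochore genes, 0.84 and 0.73 for the chromosome structure genes, and 0.41 and 0.39 for the transcription factors *Foxm1* and *Mybl2*, of which *Foxm1* alone passed 0.5. The S-phase members did not share the gap. Their replicate 2 minus replicate 1 medians were -0.081 in *Bptf* f/f and -0.15 in *Bptf* cKO, 0 of 18 passed 0.5 in each genotype, and 3 of 18 (*Tk1*, *Tyms* and *Rrm1*) had both replicate 2 libraries above both replicate 1 libraries, while 7 of 18 had both below, each order being found in 19.2% of all tested genes. *Tk1*, *Tyms* and *Rrm1* are nucleotide supply genes, whose median gap was 0.53 and 0.17 with *Rrm2* included. The helicase and its loading factors had medians of -0.081 and -0.21, the fork genes 0.035 and -0.093, and the group of cyclin E genes and *E2f1* had -0.27 and -0.31.

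**Figure D4:**
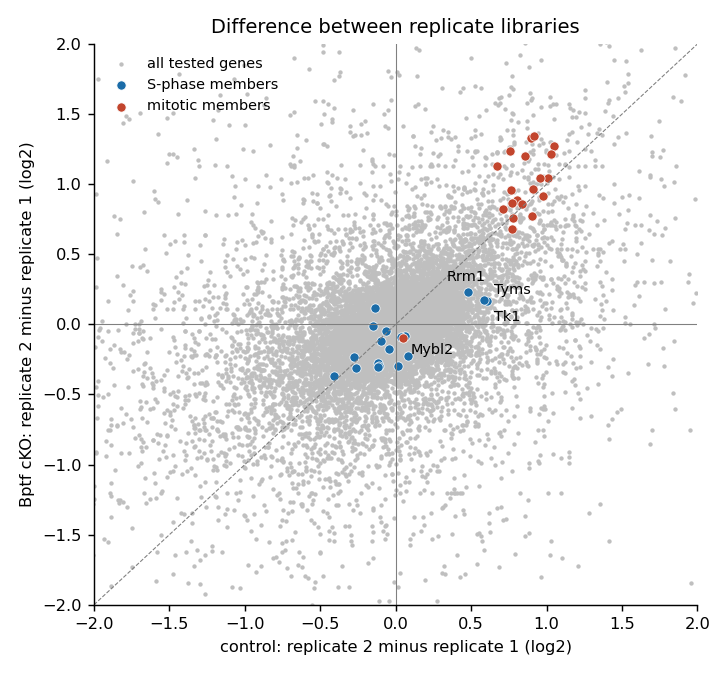
Replicate 2 minus replicate 1 (log2) in *Bptf* f/f (x axis) against the same in *Bptf* cKO (y axis), with the tested genes in grey, the S-phase and the mitotic members in colour and a dashed line where both are equal. Axes end at 2 either way, which leaves 449 genes outside, and 19 mitotic members lie above 0.5 on both axes, apart from *Mybl2*, while the S-phase members gather around 0.

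Set against each other within a library, the 20 mitotic members had a mean log2 level of 11.19, 12.01, 11.10 and 12.07 (first the *Bptf* f/f pair, then the *Bptf* cKO pair, replicate 1 before 2), and the 18 S-phase members 11.58, 11.58, 11.62 and 11.51. The difference between the groups, mitotic minus S-phase, was -0.39 and 0.43 in *Bptf* f/f (mean 0.022 ± 0.58, SD, n = 2) and -0.52 and 0.56 in *Bptf* cKO (mean 0.020 ± 0.76). The genotypes differed by -0.0024 on this measure and overlapped. Leaving out a library moved that value to -0.41 without *Bptf* f/f replicate 1, 0.41 without *Bptf* f/f replicate 2, 0.54 without *Bptf* cKO replicate 1 and -0.54 without *Bptf* cKO replicate 2, and 2 libraries against 2 allow no exact permutation p under 0.333. The replicates differed by 0.82 in *Bptf* f/f and 1.08 in *Bptf* cKO, and the values with a library left out carry that difference. Between 0.808% and 1.07% of the reads of a library fell on the 38 genes, more in the replicate 2 libraries. In bulk RNA, a smaller share of cells in mitosis and less mitotic transcript per cell cannot be told apart.

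Further genes of the same pathways were taken from lists fixed by function. Of 56 other replication genes 0 were called by limma, edgeR or DESeq2, and the one with an unadjusted p under 0.05 was *Shmt1*, a folate enzyme of nucleotide supply, at 1791 and 2076 normalized counts in the *Bptf* f/f libraries and 2481 and 2346 in the *Bptf* cKO libraries (log2 fold change 0.32, limma adjusted p = 0.278). *Rfc3* (-0.28) and *Lig1* (-0.24), clamp loader and ligase of the lagging strand, had the next smallest p. Of 74 other mitotic genes 0 were called by the same tools and 0 had an unadjusted p under 0.05, and *Pkmyt1* (0.24), *Hjurp* (-0.47) and *Cenph* (-0.30) came first by p. *Hjurp*, the chaperone that loads CENP-A, was at 10004 and 15689 against 7575 and 10812. The gap by replicate number was present in these other mitotic genes too, with medians of 0.81 and 0.81 and 51 of 74 (68.9%) above 0.5 in each genotype. Of the 56 other replication genes 2 passed 0.5 in each genotype, *Dbf4* and *Ticrr*. Both replicate 2 libraries lay above both replicate 1 libraries for 71 of the 74 and for 19 of the 56, and below for 1 and 5. Each order was found in 19.2% of all tested genes.

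Of 18 E2F, pocket protein and MuvB regulators, limma called 0, edgeR 0 and DESeq2 1, a share like the 5.55% of all genes. *Tfdp2*, a DNA-binding partner of E2F proteins, was at 2716 and 2651 normalized counts in the *Bptf* f/f libraries and 1973 and 2028 in the *Bptf* cKO libraries (-0.42, adjusted p = 0.128 by limma and 0.0251 by DESeq2). *E2f5*, a repressive E2F that binds the pocket proteins p107 and p130, was at 203 and 193 against 104 and 102 (-0.94, 0.132 by limma and 0.0504 by DESeq2). Their *Bptf* cKO libraries lay below both controls, as in 4 of the 18 regulators and 23.8% of all tested genes, while 7 of the 18 had the opposite order, against 23.2% of all. *Mybl1*, a relative of *Mybl2*, followed (0.38, limma adjusted p = 0.456). Of 14 subunits of the anaphase-promoting complex, 0 were called by any of the 3 tools and 0 had an unadjusted limma p under 0.05, with *Anapc16* (0.28), *Anapc4* (-0.24) and *Anapc2* (-0.15) first by p. A difference by replicate number above 0.5 in each genotype held for 0 of the 14 and 0 of the 18 regulators. Both replicate 2 libraries lay above both replicate 1 libraries for 8 of the 14 and 3 of the 18, and below for 1 and 3.

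Markers of cell types differed by replicate number as well. The deposited table holds only genes with at least 11 reads in total, and 3 of the 7 T and NK cell markers were in it. Summed normalized counts of 9 long-term stem cell markers were 16675 and 21992 in *Bptf* f/f and 10786 and 13218 in *Bptf* cKO (7 of 9 higher in replicate 2 of both genotypes, and 7 of 9 below both controls in each *Bptf* cKO library), and those of 6 multipotent progenitor markers were 45259 and 28998 against 29497 and 21507, lower in replicate 2 for all 6. Neutrophil and monocyte markers summed to 84256 and 14001 against 60499 and 50194, with 11 of 12 lower in replicate 2 than in replicate 1 of each genotype. B cell markers summed to 7636 and 1992 against 4288 and 2487 (6 of 6 tested lower in this way). Megakaryocyte markers summed to 5339 and 2962 against 4251 and 3650.1 (4 of 5 lower), and the 3 listed T and NK cell markers to 2579 and 1724 against 2866 and 2603 (3 of 3 lower). These counts by replicate number compare the 2 libraries within each genotype. The share of all tested genes with such an order was not counted. *Ly6a*, which encodes SCA-1, was higher in replicate 2, at 815 and 1369 against 726 and 1743. Erythroid markers followed genotype instead, at 3528 and 2507 against 519 and 684, with 7 of 9 tested lower in both *Bptf* cKO libraries. That order, given above for the long-term stem cell markers too, was found in 23.8% of all tested genes. The part of these cell types in the member values was not tested.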

How the data were processed

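RNA-seq of sorted LSK cells was compared between 2 *Bptf* f/f (control) and 2 *Bptf* cKO libraries, grouped by the sample labels. The authors deposited for each library a signal, gene counts divided by a size factor, together with their own comparison (a log2 fold change, its standard error and test statistic, which are scores, and raw and adjusted p-values), and that comparison was not used. The submitters' processing notes name HISAT2, featureCounts, DESeq2 and the GRCm38 (mm10) build, and the annotation and the strand setting are not given in the sources used here. Whole reads were recovered for 100% of the deposited signal values (within 0.01 of a read). Every listed gene had at least 11 reads in total.

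Genes with a mean of at least 10 were compared as log2(signal + 1) with limma 3.58.1 in R 4.3.3 (mean-variance trend, genotype only, Benjamini-Hochberg adjustment over all 14858 tested genes). edgeR 4.0.16 (quasi-likelihood test) and DESeq2 1.42.0 on the recovered reads were alternatives, and the fits were tested on simulated data. Pseudocounts of 0.5 and 10 were tried too, as were no filter, a mean of at least 50, recentred libraries, TMM factors, the replicate block and each library left out. Each library was a pool of 5 mice, so p-values measure the spread between pools. Medians over members carry no test.

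Exon lengths for levels per kilobase are of GENCODE vM21, and promoters and pseudogene names of RefSeq. The members and the other lists were chosen with earlier results of these data known. All members are named, and of each other list the 3 genes with the smallest p. *Dbf4*, *Ticrr*, *Xist*, the Y-linked genes and the pluripotency genes were named after their values were seen.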

Additional observations from a re-analysis of the deposited data

How the results depend on the processing

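No member was called under pseudocounts of 0.5 or 10, no filter, a mean of at least 50, recentred libraries, TMM factors, edgeR or DESeq2. Over the whole table DESeq2 called 808 genes and leaving out a library between 1 and 117 (117 without *Bptf* f/f replicate 1, 64 without *Bptf* f/f replicate 2, 1 without the one or the other *Bptf* cKO library), against 110, and the cause was not tested. Fits without a library leave 1 library in an arm, which is assumed to vary like the other group, and with so few calls the 0 members called in them say nothing about stability. The labels do not say that a replicate number marks a shared batch, and deviations of same-numbered libraries from their group means correlated at 0.452 across genes, which are not independent. The fit with the replicate block called 2138 genes (14.4%), 1 of the S-phase members (*Ccne2*, adjusted p = 0.0452) and 1 of the mitotic members (*Mybl2*, 0.0219), 5.26% of the 38, and the standard error of the mitotic members then had a median of 0.090. The median fold change of the S-phase members ran from -0.079 to 0.0036 and that of the mitotic members from -0.52 to 0.47 as each library was left out, and the genotype difference in mitotic minus S-phase level from -0.54 to 0.54. The replicate numbers were then unbalanced between the genotypes, so the gap by replicate number enters these ranges. Recentring turned both medians above 0, to 0.021 and 0.019. The gap by replicate number, recomputed after the data were seen, had a mitotic median of 0.84 to 0.88 in *Bptf* f/f and 0.95 to 0.97 in *Bptf* cKO over the settings. The replicate 2 libraries were also the shallower ones, so replicate number and depth cannot be told apart, though a member had at least 297 reads in every library. *Xist*, the Y-linked genes and the pluripotency genes differed by replicate number too, and what lies behind those differences was not tested as a part of the gap.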

Other observations

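The gap by replicate number was also counted by promoter content over tested genes with 1 promoter in the RefSeq table, as a description with no test. Of genes outside the mitotic lists whose promoter held a CHR word and a CCAAT box, 35 of 445 (7.87%) were higher in replicate 2 by more than 0.5 (log2) in each genotype, against 207 of 7766 (2.67%) of those without both. Among genes outside the mitotic lists with an E2F word it was 4 of 350 (1.14%). Most of the other mitotic genes had the gap with or without the pair of words. It was present in 23 of 29 (79.3%) with both, in 18 of 28 (64.3%) without both and in 4 of 7 (57.1%) with an E2F word.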
